A study of Mus musculus with 12 samples.

Results

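The genes described here are the Hox genes of the mouse, measured in primary tumours of 4 related mammary carcinoma lines. They were taken as every gene whose symbol is Hoxa, Hoxb, Hoxc or Hoxd followed by a number in the array's probe annotation, with at least 1 probeset that names that gene alone. This gave 33 genes of the 16185 genes tested, namely 9 of the Hoxa cluster, 10 of the Hoxb cluster, 8 of the Hoxc cluster and 6 of the Hoxd cluster. Hox genes with no probeset of their own were not analysed here. The rule used no measured value.

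Hox genes encode homeodomain transcription factors that give cells their position along the body axis. They lie in clusters, and their order on the chromosome follows the order of the body regions in which they act in the embryo, with low numbers anterior and high numbers posterior. The proteins bind DNA together with the cofactors Pbx and Meis, and Polycomb and Trithorax proteins keep the genes silent or active through cell division. In the adult, Hox genes stay active by region, including in the mammary gland, and their levels differ between breast tumours.

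Female BALB/c mice, 3 months old, received cells of 1 line in the fourth mammary fat pad, and the labels name 8 mice for 67NR, 11 for 168FARN, 15 for 4T07 and 13 for 4T1. Tumours were removed once those of a line averaged 1 to 2 cm, and total RNA of 3 samples per line was hybridised to an exon array, 12 arrays in all. The lines come from 1 mouse mammary carcinoma and are known for differing in how far they spread, from 67NR, which forms primary tumours alone, to 4T1, which forms metastases. Each kind of behaviour stands for 1 line here, so line and behaviour cannot be told apart. The labels name no treatment, and each tumour sample could hold cells of the host beside tumour cells. No source used here states that each array came from its own animal, so a p-value here reflects how these samples vary, which may be technical variation. In such bulk samples, fewer cells of a type and less RNA per cell cannot be told apart. Arrays have no read depth, and their number, 3 per line, limits the precision.

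A value below is the level of a gene on 1 array, the median of the log2 signals of its single-gene probesets, and 1 unit is a doubling of signal. The 33 genes had 3 to 14 such probesets each, 197 in all. The 886 olfactory receptor genes, which are not known to be active in this tissue, gave a scale of background, with a median of 3.28 and 95% of them at or under 5.41. By that scale, 19 Hox genes lay above 5.41 in the mean of every line, 25 in at least 1 line and 8 in none. Those 8 were Hoxa11, Hoxb2, Hoxb8, Hoxc4, Hoxc9, Hoxc12, Hoxc13 and Hoxd13, mostly genes with high numbers. The median level was 5.94 for Hox genes and 7.22 for all genes. A level above 5.41 does not by itself show expression, since the homeobox genes Evx1, Evx2, Cdx1 and Cdx2, listed as relatives of the Hox genes, lay between 6.18 and 7.10 in every line mean. Line means of Hox genes in that range carry the same limit, among them Hoxc6 in 168FARN (6.76) and Hoxc8 in 4T07 (7.02). Probesets also differ in how strongly they respond, so the level of 1 gene is not set against that of another as an amount of RNA.

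**Figure D1:**
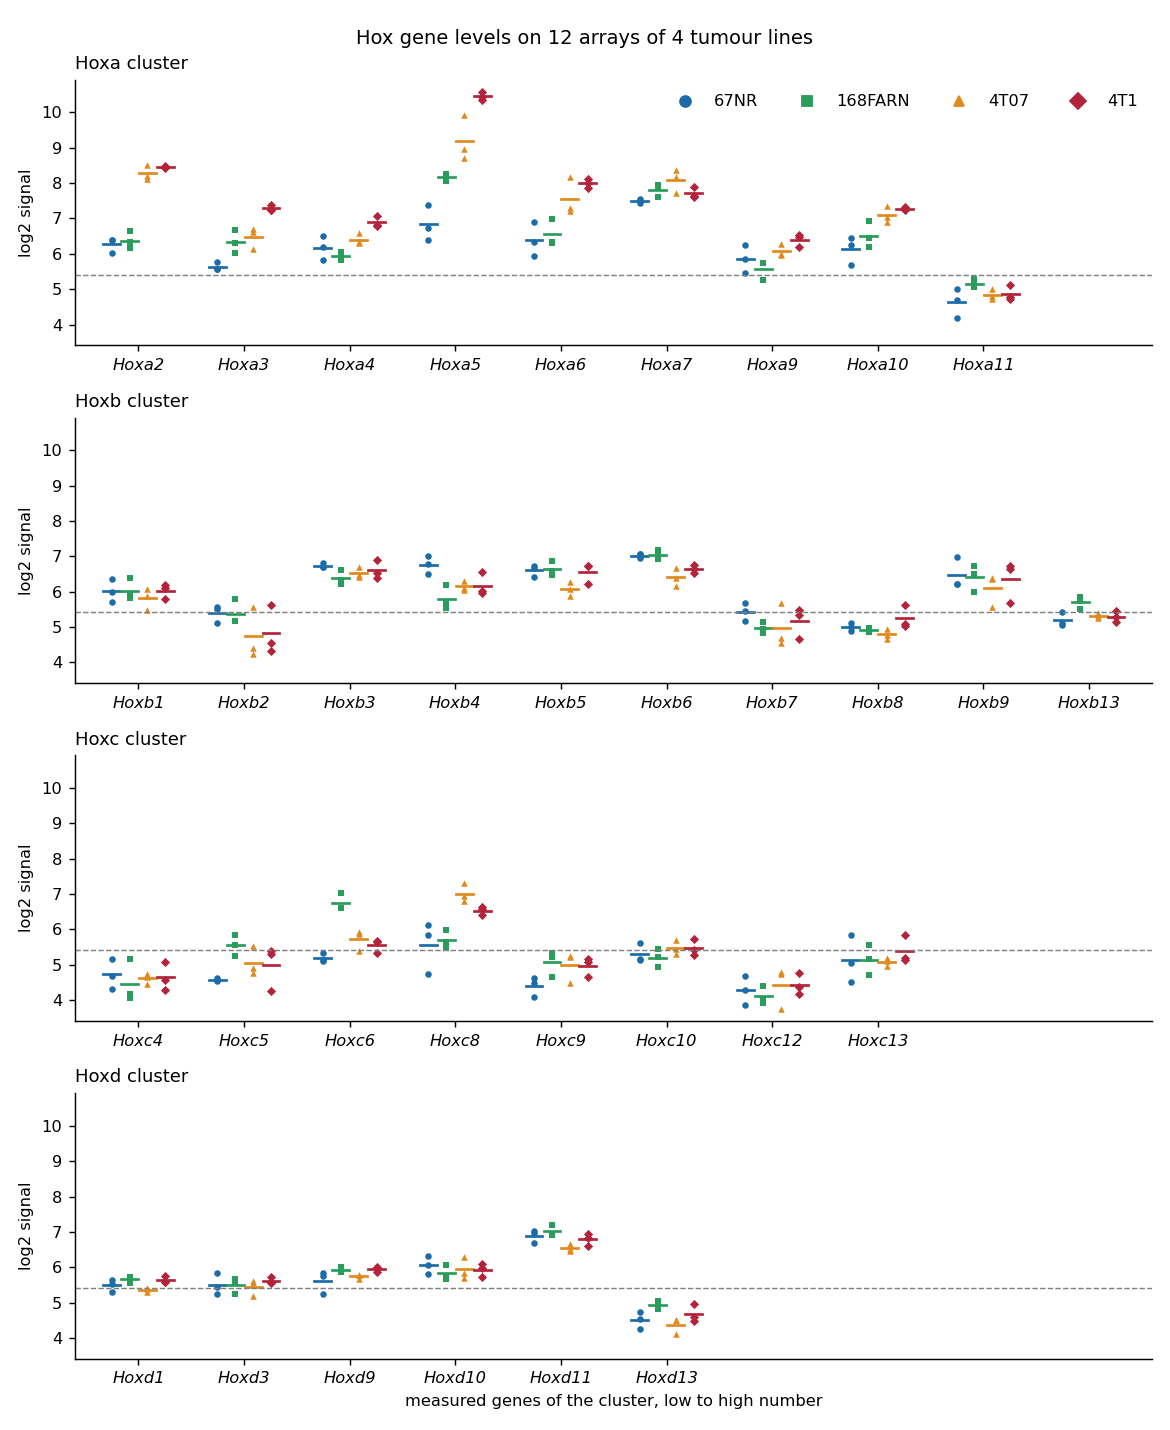
Level of each measured Hox gene on each of the 12 arrays, by cluster and from low to high number, with log2 signal on the vertical axis, a short line at the mean of 3 arrays and a dashed line at 5.41, the 95th percentile of olfactory receptor genes. Line means lie furthest apart in the Hoxa panel, at Hoxa2, Hoxa3, Hoxa5, Hoxa6 and Hoxa10, and at Hoxc6 and Hoxc8, while the Hoxd panel is nearly level.

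The 4 lines differed mainly within the Hoxa cluster. The mean over the 9 Hoxa genes was 5.97, 6.29 and 6.21 on the 67NR arrays, 6.34, 6.49 and 6.64 on the 168FARN arrays, 7.03, 6.99 and 7.33 on the 4T07 arrays, and 7.46, 7.52 and 7.47 on the 4T1 arrays. By this mean the lines stood in the order 67NR, 168FARN, 4T07, 4T1 with no overlap between neighbours in that order. The arrays of 67NR and 168FARN came as close as 6.29 and 6.34. Of the 9 genes, Hoxa5 had the largest change in 168FARN against 67NR, at 1.33. The changes of Hoxa2 and Hoxa6 were 0.10 and 0.16, and those of Hoxa4 and Hoxa9 were -0.23 and -0.265. The same mean over the 10 Hoxb genes was highest in 67NR, at 6.03 to 6.08 against 5.63 to 6.01 on the other 9 arrays. It was lowest in 4T07, at 5.63 to 5.78. Over the 8 Hoxc genes it was lowest in 67NR, at 4.83 to 5.01 against 5.03 to 5.45 on the other 9 arrays. Over the 6 Hoxd genes it lay between 5.50 and 5.87 on all 12 arrays, with the 4T07 arrays (5.50 to 5.66) below those of 168FARN and 4T1 and the 67NR arrays overlapping all 3 other lines.

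Promoter sequences of 18 of the 33 genes were held in the RefSeq table of assembly GRCm38.p6, as the 250 bases before a transcription start, and 3 of them are shown because they belong to nearby Hoxa genes that were all higher in 4T07 and 4T1 tumours than in 67NR tumours, with promoters that differ in CG content. Capitals mark CG dinucleotides, the sites at which DNA can be methylated. Methylation was not measured in this study. All 3 are on the minus strand of chromosome 6, at chr6:52164832-52165081 for Hoxa2, chr6:52204588-52204837 for Hoxa5 and chr6:52208673-52208922 for Hoxa6.
Hoxa2: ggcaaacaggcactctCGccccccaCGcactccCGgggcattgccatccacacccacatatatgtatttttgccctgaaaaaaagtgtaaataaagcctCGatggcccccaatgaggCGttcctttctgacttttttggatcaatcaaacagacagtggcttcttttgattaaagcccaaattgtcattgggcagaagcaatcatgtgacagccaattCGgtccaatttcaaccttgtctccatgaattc
Hoxa5: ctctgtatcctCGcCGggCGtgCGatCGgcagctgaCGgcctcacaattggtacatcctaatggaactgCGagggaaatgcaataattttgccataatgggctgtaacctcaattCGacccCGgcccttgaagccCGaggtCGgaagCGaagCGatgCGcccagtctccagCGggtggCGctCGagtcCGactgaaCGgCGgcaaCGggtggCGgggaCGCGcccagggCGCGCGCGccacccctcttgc
Hoxa6: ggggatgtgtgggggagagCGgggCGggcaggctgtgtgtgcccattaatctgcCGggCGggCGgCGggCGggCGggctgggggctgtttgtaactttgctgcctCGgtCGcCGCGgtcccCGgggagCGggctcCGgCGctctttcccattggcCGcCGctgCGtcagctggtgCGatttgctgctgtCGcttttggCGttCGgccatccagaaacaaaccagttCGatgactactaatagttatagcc
The Hoxa5 window held 28 CG dinucleotides and the Hoxa6 window 24, against 6 in the Hoxa2 window. The median was 13 over the 20 windows of Hox genes and 6 over all 32851 windows of the table, and the median GC content was 59.2% against 52.4%. The letters TGATTNAT, a site bound by Pbx and Hox proteins together, were searched on both strands and occurred in the windows of Hoxa2 and Hoxd11, 2 of the 20, against 2.83% of all windows. In the Hoxa2 window the match reads ATCAATCA on the strand shown, 111 bases before the start. The letters TATAAA occurred in 3 Hox windows, those of Hoxa10, Hoxb8 and Hoxd13, against 12.4% of all windows. A match of letters is a description and was not tested for binding.

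Across all 4 lines, 11 of the 33 Hox genes passed limma's moderated F-test at an adjusted p under 0.05, against 38.6% of all genes tested, so the share among Hox genes was near that of genes in general. By cluster, 7 of 9 Hoxa genes passed, 2 of 10 Hoxb genes, 2 of 8 Hoxc genes and 0 of 6 Hoxd genes. Before adjustment, limma's F-test put 2 Hoxd genes under 0.05, Hoxd11 at 0.0461 and Hoxd13 at 0.0487. By position, the test was passed by 2 of the 7 anterior genes (numbers 1 to 3), 7 of the 13 central genes (numbers 4 to 8) and 2 of the 13 posterior genes (numbers 9 to 13). In 7 genes the test was passed and the highest and lowest line means lay at least 1 log2 unit apart, against 19.7% of all genes tested. These 7 were Hoxa2, Hoxa3, Hoxa5, Hoxa6, Hoxa10, Hoxc6 and Hoxc8, and they are given array by array. All 7 passed the F-test in each of the 21 or 22 alternative settings in which they were tested.

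Hoxa2, a gene known for patterning the hindbrain and the second branchial arch, was high in both 4T07 and 4T1. Its level was 6.38, 6.40 and 6.04 on the 67NR arrays, 6.32, 6.15 and 6.64 on the 168FARN arrays, 8.12, 8.52 and 8.21 on the 4T07 arrays, and 8.45, 8.48 and 8.44 on the 4T1 arrays. All 6 arrays of 4T07 and 4T1 lay above all 6 of 67NR and 168FARN, and within each of these pairs the lines overlapped. Hoxa2 was higher in 4T1 than in 67NR by 2.18 ± 0.17 (SE) log2 units, or 4.54-fold (limma, adjusted p = 1.77e-06), and in 4T07 than in 67NR by 2.01 (adjusted p = 3.65e-06). Between 168FARN and 67NR the difference was 0.10, with a 95% interval from -0.27 to 0.47, and between 4T1 and 4T07 it was 0.17, from -0.20 to 0.54.

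Hoxa3, which is needed to form the thymus and parathyroid, was lowest in 67NR and highest in 4T1. Its level was 5.56, 5.57 and 5.76 in 67NR, 6.31, 6.03 and 6.67 in 168FARN, 6.61, 6.13 and 6.71 in 4T07, and 7.24, 7.37 and 7.25 in 4T1. The 67NR arrays lay below all others and the 4T1 arrays above all others, while 168FARN and 4T07 overlapped. The difference of 4T1 from 67NR was 1.66 ± 0.19 (SE), or 3.15-fold (limma, adjusted p = 4.33e-05), and that of 4T07 from 67NR was 0.85 (adjusted p = 0.00613). The latter was not called with the mean or the upper quartile of the probesets, where it was as small as 0.41, with an adjusted p of up to 0.195. The difference of 168FARN from 67NR was 0.70 (adjusted p = 0.0175), and it was not called without 67NR array 1, 67NR array 2 or 168FARN array 3 or with either of those summaries, with an adjusted p of up to 0.356 over all settings tried.

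Hoxa5, which acts in lung and airway development and whose human counterpart is often silenced in breast tumours, stepped up through all 4 lines. Its level was 6.39, 7.39 and 6.74 in 67NR, 8.07, 8.26 and 8.17 in 168FARN, 8.95, 8.72 and 9.93 in 4T07, and 10.34, 10.44 and 10.58 in 4T1. No line overlapped another, and the lines stood in the order 67NR, 168FARN, 4T07, 4T1. The line means were 6.84 ± 0.51 (SD, n = 3) for 67NR, 8.16 ± 0.09 for 168FARN, 9.20 ± 0.64 for 4T07 and 10.45 ± 0.12 for 4T1.

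By limma, Hoxa5 differed in all 6 comparisons between lines. The largest difference was that of 4T1 from 67NR, 3.62 ± 0.30 (SE) log2 units or 12.3-fold (adjusted p = 2.68e-06), followed by 2.36 for 4T07 against 67NR (adjusted p = 8.79e-05) and 2.29 for 4T1 against 168FARN (adjusted p = 9.45e-05). The step from 67NR to 168FARN was 1.33 (adjusted p = 0.00607). It was not called with the mean or the upper quartile of the probesets, where it was as small as 0.57, or with array 1 as the only 168FARN array, with an adjusted p of up to 0.126. The step from 168FARN to 4T07 was 1.04 (adjusted p = 0.0202). The step from 168FARN to 4T07 was not called without 168FARN array 1, 168FARN array 3 or 4T07 array 3. With array 1 as the only 168FARN array it was 1.13, a size alone, since 168FARN then has no spread of its own. The step from 4T07 to 4T1 was 1.25, with an adjusted p of 0.0485 that lay close to the threshold. It was called in 9 of 22 alternative settings, and not without any 1 of 67NR array 3, the 3 168FARN arrays, 4T07 array 1, 4T07 array 2 or the 3 4T1 arrays, with an adjusted p of up to 0.221.

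Hoxa6, the neighbour of Hoxa5, was higher in 4T07 and 4T1. Its level was 5.95, 6.89 and 6.33 in 67NR, 6.31, 6.35 and 7.0 in 168FARN, 7.20, 7.30 and 8.18 in 4T07, and 7.87, 8.12 and 7.99 in 4T1. As with Hoxa2, the arrays of 4T07 and 4T1 lay above all of 67NR and 168FARN, with overlap within each pair. The difference of 4T1 from 67NR was 1.61 ± 0.29 (SE), or 3.05-fold (limma, adjusted p = 0.00163), and that of 4T07 from 67NR was 1.17 (adjusted p = 0.0117). The latter was not called without 67NR array 1 or with the mean of the probesets, where it was smallest, at 0.47 (adjusted p = 0.297).

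Hoxa10, a gene of the posterior part of the cluster known for its role in the uterus and in blood cell development, rose less. Its level was 5.67, 6.26 and 6.45 in 67NR, 6.18, 6.92 and 6.44 in 168FARN, 7.04, 6.91 and 7.34 in 4T07, and 7.26, 7.25 and 7.31 in 4T1. The 4T1 arrays lay above all of 67NR and 168FARN, and 168FARN overlapped 4T07 on 1 array. The difference of 4T1 from 67NR was 1.15 ± 0.23 (SE), or 2.22-fold (limma, adjusted p = 0.00276), that of 4T07 from 67NR was 0.97 (adjusted p = 0.00776) and that of 4T1 from 168FARN was 0.76 (adjusted p = 0.0225). The last was not called without 168FARN array 1, 168FARN array 3 or any of the 3 4T1 arrays, with an adjusted p of up to 0.0879.

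**Figure D2:**
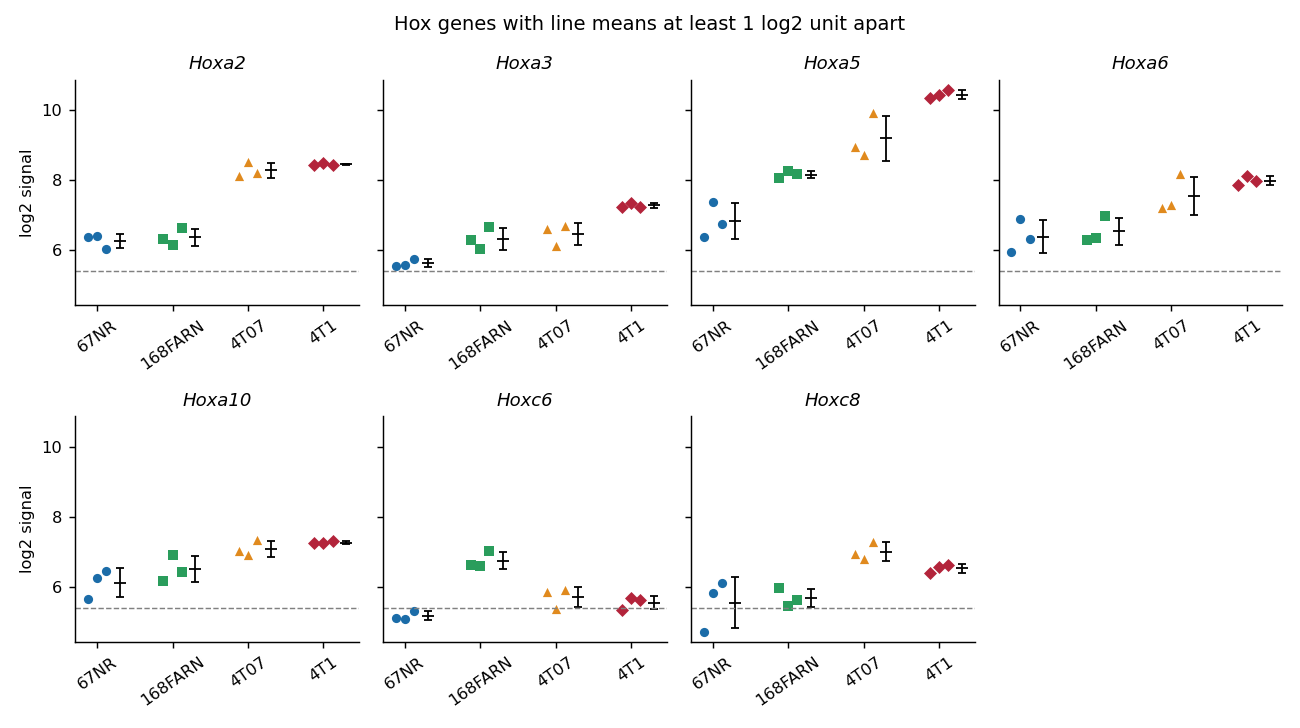
Level on each array of the 7 Hox genes that passed limma's F-test with line means at least 1 log2 unit apart, with the mean and SD of 3 arrays beside the points and a dashed line at 5.41. Hoxa5 climbs in 3 steps from 6.84 to 10.45, Hoxa2 and Hoxa6 split the lines into a low and a high pair, and Hoxc6 stands alone in 168FARN.

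The other Hoxa genes moved less or not at all. Hoxa4 (F-test adjusted p = 0.00439 by limma) was higher in 4T1 than in 168FARN by 0.96 and than in 67NR by 0.73. With the upper quartile of its probesets in place of their median these differences were -0.05 and 0.03, and that from 67NR was also not called without 67NR array 1 or 4T1 array 2. Hoxa9, which with Hoxb9 and Hoxd9 is needed for the mammary gland to develop in pregnancy, had line means from 5.58 to 6.40 (F-test adjusted p = 0.0366), and 4T1 was above 168FARN by 0.81 (adjusted p = 0.0111). The F-test was passed in 15 of 22 alternative settings and not without 67NR array 3, 168FARN array 1 or 2 or 4T1 array 2 or 3, with an adjusted p of up to 0.106. Its counterparts Hoxb9 and Hoxd9 did not pass (adjusted p = 0.79 and 0.278). Hoxa7 had line means from 7.49 to 8.08 and did not pass the F-test (adjusted p = 0.0809), although 4T07 was above 67NR by 0.59 (adjusted p = 0.0291). That difference was not called without any 1 of the 3 67NR arrays or 4T07 array 2 or 3. With the upper quartile of the probesets it was 0.065 (limma adjusted p = 0.78). Hoxa11 lay under 5.41 in every line and did not pass (adjusted p = 0.224).

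Genes next to the Hoxa cluster were mostly level. Of the 3 nearest measured genes on each side in RefSeq order, Cbx3, Snx10, Evx1, Gm8129 and Hibadh did not pass limma's F-test (adjusted p from 0.303 to 0.955). Skap2, an adaptor protein of immune cell signalling that lies next to the anterior end, did (adjusted p = 0.000989). Its level was 8.78, 8.55 and 8.60 in 67NR, 9.26, 9.54 and 9.15 in 168FARN, 9.18, 9.25 and 9.81 in 4T07, and 9.95, 9.89 and 9.82 in 4T1. The 67NR arrays lay below all others and the 4T1 arrays above all others, the same order as for Hoxa3, and the difference of 4T1 from 67NR was 1.24 (adjusted p = 0.000291). Around the other clusters, Ttll6 (3.88 to 4.54 in line means, under 5.41 in every line), Snx11, Atp5g2, Cbx5, Atp5g3, Lnpk and Mtx2 passed the F-test. Their line means spanned 0.54 to 0.89 log2 units, and 11 further neighbours did not pass, Calcoco2, Ube2z, Cbx1, Nfe2l1, Atf7, Calcoco1, Smug1, Hnrnpa1, Evx2, Hnrnpa3 and Nfe2l2. In all, 8 of 24 neighbours passed, against 38.6% of all genes.

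**Figure D3:**
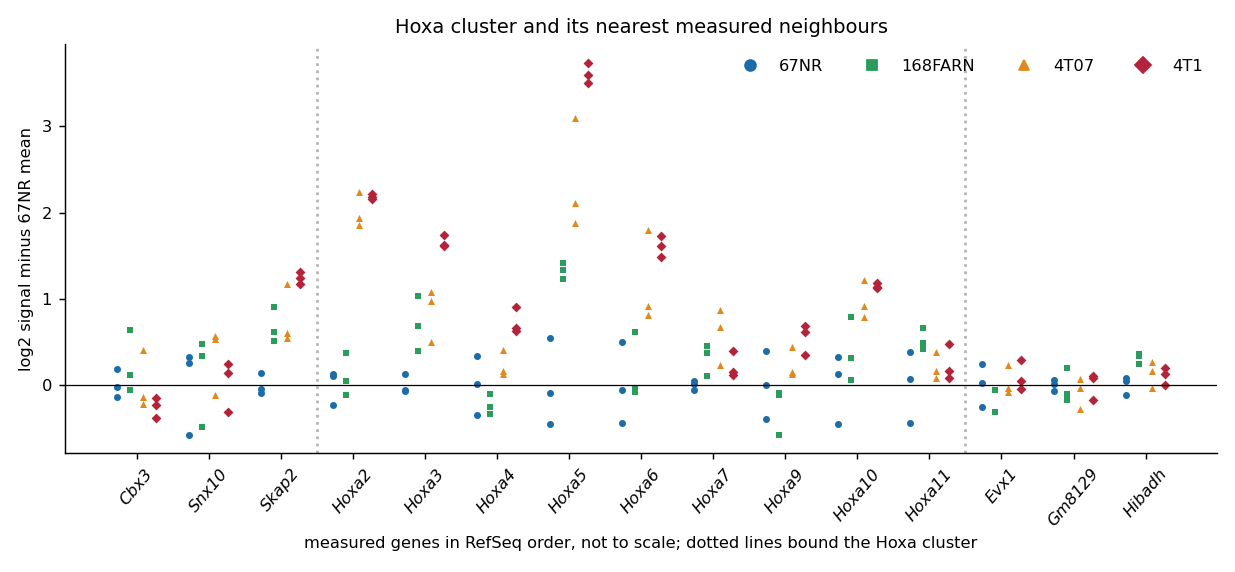
Level on each array minus the 67NR mean, in log2 units, for the 9 measured Hoxa genes and the 3 nearest measured genes on each side, in RefSeq order and not to scale, with dotted lines at the ends of the cluster. The difference of 4T1 is largest at Hoxa5 (3.62), is present at Skap2 (1.24) and is near 0 at Evx1, Gm8129 and Hibadh.

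The same differences were looked for probeset by probeset, since an exon array places several on each gene. Over all 207232 single-gene probesets, 27.2% passed limma's F-test, and 37 of the 197 Hox probesets did, which is 18.8%. They lay in 17 genes. All 4 probesets of Hoxa2 passed, all 5 of Hoxa5, 4 of 6 of Hoxa3, 2 of 3 of Hoxa6, 4 of 7 of Hoxa10 and 3 of 6 of Hoxc6. All 5 Hoxa5 probesets were higher in 4T1 than in 67NR, by 1.75 to 3.70 log2 units. In Hoxa10 the probesets differed among themselves. Its brightest was level, at 8.64 in 67NR and 8.61 in 4T1 (F-test adjusted p = 0.7), while the fifth in brightness rose from 3.59 in 67NR to 5.92 in 168FARN, 7.02 in 4T07 and 7.43 in 4T1. In Hoxa7 the 2 brightest of 14 were level, and 2 others passed. Hoxc8 rests on 3 probesets, of which 1 passed.

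**Figure D4:**
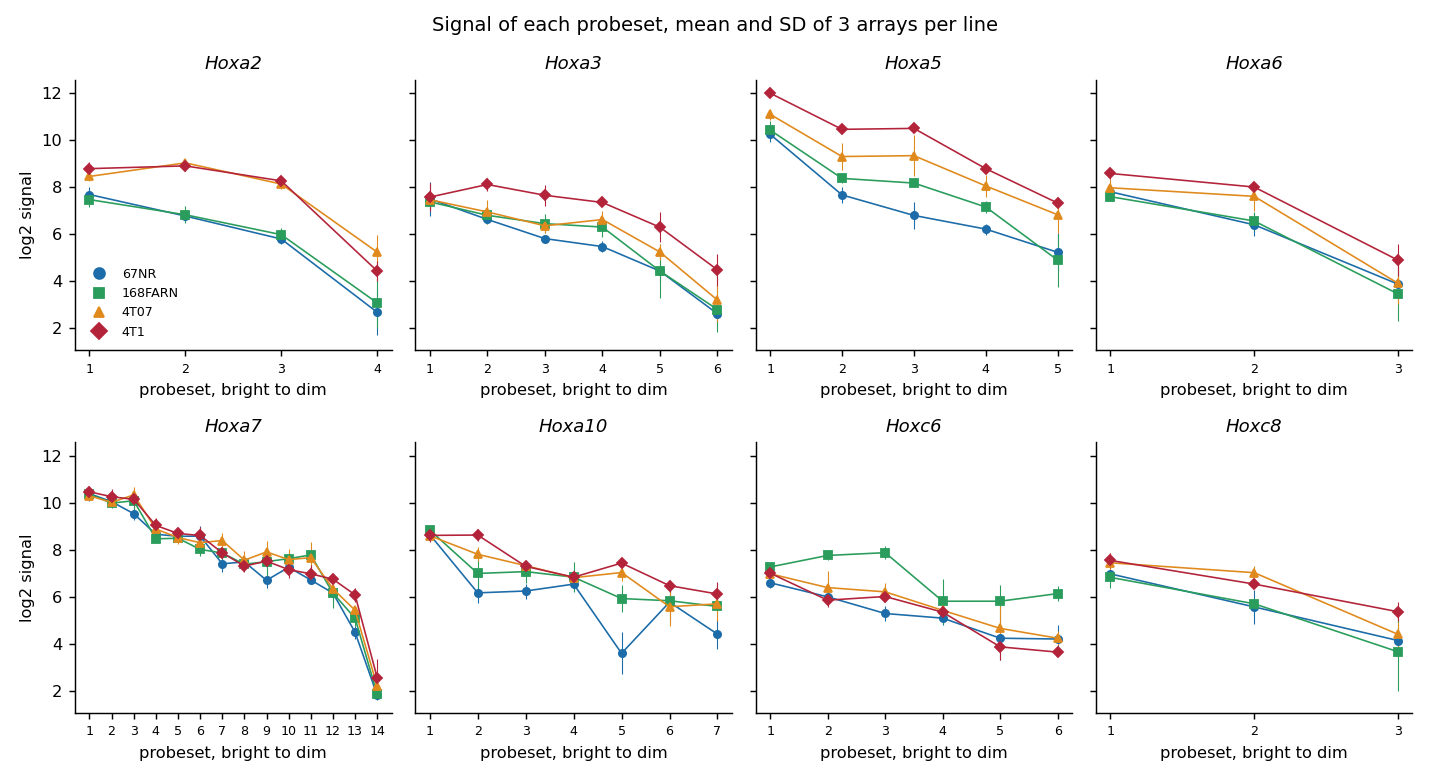
Signal of every single-gene probeset of 8 Hox genes, ranked from bright to dim, as the mean of 3 arrays per line with SD bars, in log2 units. In Hoxa2 the probesets keep 4T07 and 4T1 above 67NR and 168FARN and in Hoxa5 4T1 is highest throughout, whereas in Hoxa7 and Hoxa10 some probesets are level and others differ.

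Probesets that RefSeq gene models share could not be given to 1 gene. The RefSeq span of Hoxa3 contains Hoxa4, Hoxa5 and Hoxa6, that of Hoxb3 contains Hoxb4, and that of Hoxd3 contains Hoxd4. Hoxd10 and Hoxd11 overlap. Antisense transcripts also overlap Hoxa3, Hoxa5, Hoxa6, Hoxa11, Hoxb2, Hoxb3, Hoxb5, Hoxb6 and Hoxd3. The values of these genes are uncertain to that extent. The annotation gave 13 probesets to Hoxd4 and Hoxd3 together, whose median lay between 5.40 and 6.54 on the 12 arrays, and 1 to Hoxa3 and a second transcript, which ran from 4.90 to 6.85 in 67NR and from 7.29 to 7.59 in 4T1.

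In the Hoxc cluster, Hoxc6, a gene of the thoracic region that is also active in the mammary gland, was high in 168FARN. Its level was 5.13, 5.10 and 5.33 in 67NR, 6.62, 6.61 and 7.04 in 168FARN, 5.86, 5.39 and 5.93 in 4T07, and 5.34, 5.69 and 5.64 in 4T1. The 168FARN arrays lay above all others, and the 67NR mean of 5.18 lay within the background scale. Hoxc6 was higher in 168FARN than in 67NR by 1.58 ± 0.18 (SE), or 2.98-fold (limma, adjusted p = 6.75e-05), and lower in 4T07 and 4T1 than in 168FARN, with changes of -1.03 (adjusted p = 0.00124) and -1.21 (adjusted p = 0.000353). Its neighbour Hoxc5 was 5.55 in 168FARN and 4.58 in 67NR, the latter not above background, and passed that contrast (limma, adjusted p = 0.0287) but not the F-test (adjusted p = 0.0863). That contrast was not called without any of the 3 67NR arrays, 168FARN array 1 or 168FARN array 2.

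Hoxc8, known for patterning thoracic vertebrae and motor neurons, was high in 4T07 and 4T1. Its level was 4.74, 5.84 and 6.12 in 67NR, 5.98, 5.47 and 5.64 in 168FARN, 6.95, 6.80 and 7.30 in 4T07, and 6.39, 6.58 and 6.63 in 4T1. The 4T07 arrays lay above all others, the 4T1 arrays came next, and 67NR and 168FARN overlapped. The difference of 4T07 from 67NR was 1.45 ± 0.29 (SE), or 2.74-fold (limma, adjusted p = 0.00307), and fell to 0.73 (adjusted p = 0.0731) with the mean of its 3 probesets in place of their median. That of 4T1 from 67NR was 0.97 (adjusted p = 0.0324), and it was not called without 67NR array 1 or without any of the 3 4T1 arrays, with an adjusted p of up to 0.0992. The other 5 Hoxc genes, Hoxc4, Hoxc9, Hoxc10, Hoxc12 and Hoxc13, did not pass (F-test adjusted p from 0.134 to 0.881).

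In the Hoxb cluster, differences were smaller and mostly lower in 168FARN or 4T07. Hoxb4, known for its role in blood stem cells, was lower in 168FARN (5.80 ± 0.35, SD, n = 3) than in 67NR (6.76 ± 0.25), a change of -0.96 by limma (adjusted p = 0.006). That change was not called with the upper quartile of the probesets, where it was -0.16 (limma adjusted p = 0.481). With array 1 as the only 168FARN array it was -0.57, again a size alone. The F-test of Hoxb4 was not passed without 67NR array 1 or 2, with an adjusted p of up to 0.0917 over all settings tried. Hoxb6 was lower in 4T07 (6.40 ± 0.25) than in 67NR (7.02 ± 0.07) and 168FARN (7.03 ± 0.13), with changes of -0.62 (adjusted p = 0.0117) and -0.63 (adjusted p = 0.00887). Both were lost with the upper quartile of the probesets, at -0.37 and -0.32, and the second also with array 1 as the only 168FARN array (adjusted p = 0.177). Its neighbour Hoxb5 was lower in 4T07 than in 168FARN in the contrast, with a change of -0.56 (adjusted p = 0.0394), a call that was lost without any 1 of 6 arrays, 67NR arrays 2 and 3, 168FARN arrays 1 and 3 and 4T07 arrays 1 and 3. Hoxb13, a posterior gene known from the prostate, lay near background in every line, and its mean was 0.51 higher in 168FARN than in 67NR (adjusted p = 0.0298), a call that was lost without 67NR array 1 or 2 or 168FARN array 1 or 2. Hoxb1, Hoxb2, Hoxb3, Hoxb7, Hoxb8 and Hoxb9 passed neither the F-test (adjusted p from 0.175 to 0.795) nor any contrast.

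In the Hoxd cluster, which acts in limb and genital patterning, 2 genes differed in 1 contrast each. Hoxd11, the Hoxd gene with the highest signal, was at 6.54 in 4T07 and 7.02 in 168FARN, a change of -0.48 (limma, adjusted p = 0.0342). Hoxd13 was at 4.38 and 4.92, both under 5.41, a change of -0.55 (adjusted p = 0.0401). The Hoxd11 call was lost without 168FARN array 2 or 3, 4T07 array 1 or 2 or 4T1 array 1, with an adjusted p of up to 0.336 over all settings tried. The Hoxd13 call was lost without 67NR array 1, any 168FARN array, 4T07 array 2 or 3 or 4T1 array 3, and also with quantile normalization or centring, with an adjusted p of up to 0.237. Hoxd1, Hoxd3, Hoxd9 and Hoxd10 passed neither the F-test (adjusted p from 0.269 to 0.865) nor any contrast.

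Pairs of lines were compared within the same limma fit, so comparisons that name the same line share its arrays. In 168FARN against 67NR, 5 Hox genes were higher and 1 lower, against 12.3% and 10.1% of all genes. The higher ones were Hoxa3, Hoxa5, Hoxb13, Hoxc5 and Hoxc6, and the count of 6 was 3 without 67NR array 1. With 168FARN array 1 as the only 168FARN array, 1 was left, Hoxc6, at a difference of 1.44 (adjusted p = 0.00516), while that of Hoxa5 was 1.23 (adjusted p = 0.117). In 4T07 against 67NR, 7 were higher and 1 lower, against 10.1% and 11.6%, and the higher ones were Hoxa2, Hoxa3, Hoxa5, Hoxa6, Hoxa7, Hoxa10 and Hoxc8. In 4T1 against 67NR, 7 were higher and 0 lower, against 8.56% and 11.7%, with Hoxa4 in place of Hoxa7. Before adjustment, 2 genes lay lower in 4T1 at a limma p under 0.05, Hoxb4 and Hoxb6, with changes of -0.59 (limma adjusted p = 0.0723) and -0.38 (adjusted p = 0.107).

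**Figure D5:**
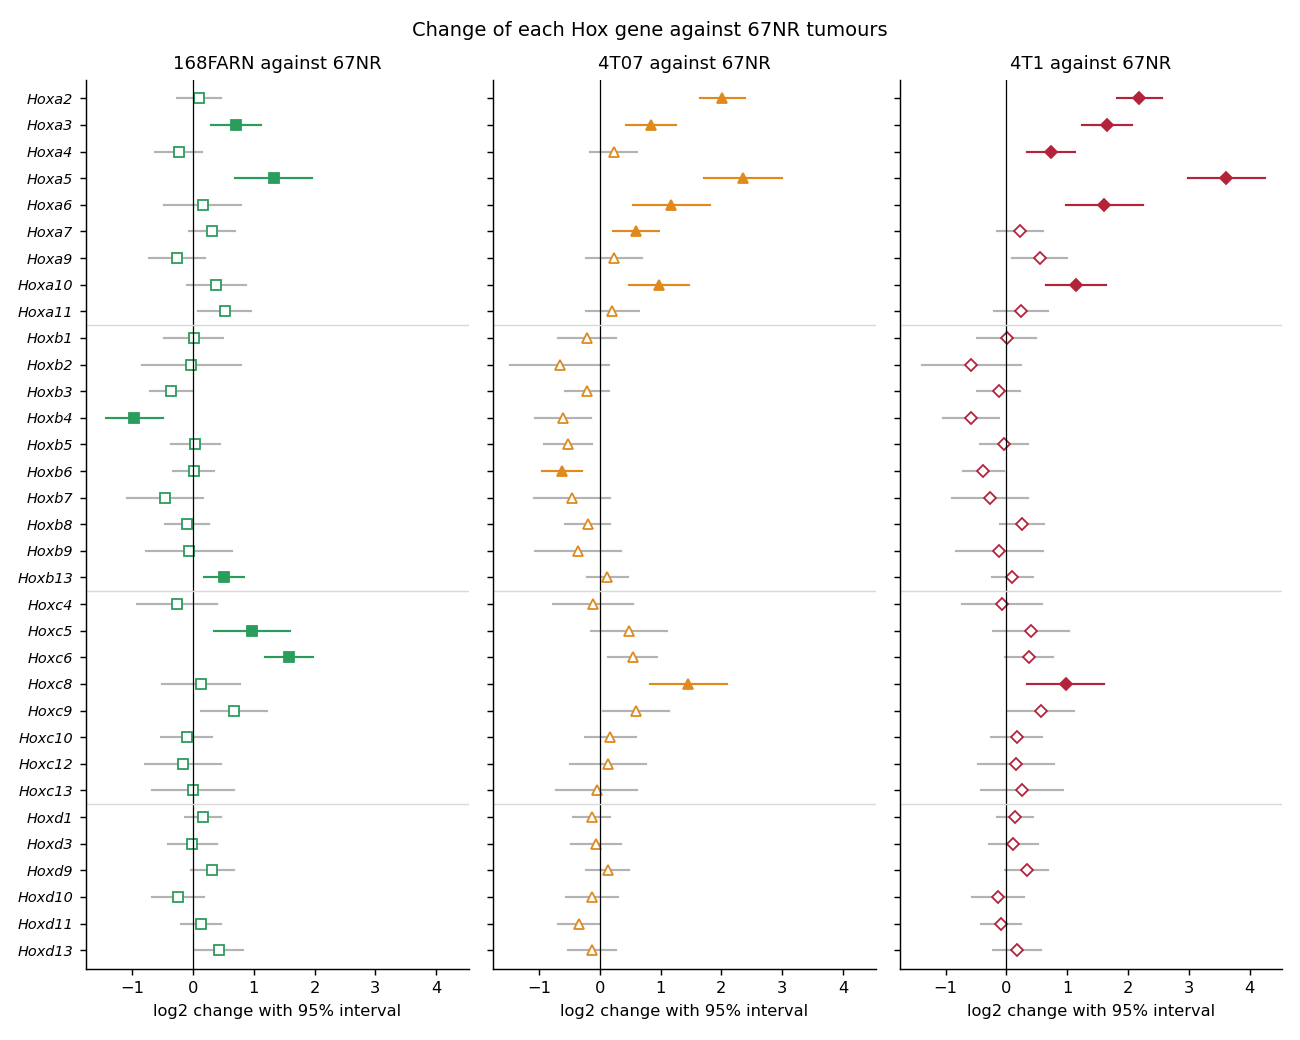
Log2 change of each of the 33 Hox genes in 168FARN, 4T07 and 4T1 against 67NR, on 1 scale, with 95% intervals from limma and filled symbols where the adjusted p is under 0.05. In the 4T07 and 4T1 panels the filled symbols on the right are 6 Hoxa genes and Hoxc8, and in the 168FARN panel they are spread over the Hoxa, Hoxb and Hoxc clusters.

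Among the other 3 lines, 4T07 against 168FARN had 4 Hox genes higher (Hoxa2, Hoxa5, Hoxa6 and Hoxc8) and 5 lower (Hoxb5, Hoxb6, Hoxc6, Hoxd11 and Hoxd13), against 10.6% and 15.3% of all genes. The count of 9 was 5 without 168FARN array 1 or 168FARN array 3. Hoxa6, at 1.01 (adjusted p = 0.0218), was not called without 168FARN array 1 or 2 or 4T07 array 3. Its call was also lost with the mean of the probesets, and the limma adjusted p was up to 0.136 over all settings tried. In 4T1 against 168FARN, 8 were higher (Hoxa2, Hoxa3, Hoxa4, Hoxa5, Hoxa6, Hoxa9, Hoxa10 and Hoxc8) and 1 lower (Hoxc6), against 11% and 17.9%. Of these, Hoxc8, at 0.84 (adjusted p = 0.0477), was called in 11 of 21 alternative settings. It was lost without 67NR array 2, 168FARN array 2 or 3 or any array of 4T07 or 4T1, and was 0.56 (adjusted p = 0.457) with array 1 as the only 168FARN array. In 4T1 against 4T07, 2 were higher, Hoxa3 and Hoxa5, both at an adjusted p of 0.0485, and 0 lower, also at an unadjusted limma p under 0.05, against 0.482% and 1.66%. With 67NR array 3, 168FARN array 1, 4T07 array 1, 4T07 array 2 or any 4T1 array left out, the count was 0. With 67NR array 1 or 2 or 168FARN array 2 or 3 left out, it was 1. The median change of the 9 Hoxa genes was 0.85 in 4T07 against 67NR and 1.15 in 4T1 against 67NR, where the median over all genes was -0.03 in both, and 0.31 in 168FARN against 67NR, where it was 0.04.

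A gene set a line apart when all 3 comparisons of that line passed in the same direction with a difference of at least 1 log2 unit. Hoxa5 set 67NR apart as lower, against 0.927% of all genes, and 4T1 apart as higher, against 0.0865%. Hoxc6 set 168FARN apart as higher, against 1.84%. Hoxa5 set no line apart with the mean or the upper quartile of its probesets. With 1 array left out it set 67NR apart each time, whereas its 4T1 call was lost with the arrays named for its step from 4T07 to 4T1. The Hoxc6 call was lost without 168FARN array 3 or 4T07 array 2, and with array 1 as the only 168FARN array neither gene set a line apart.

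Markers of other cell types moved with some of these differences. The mean of 9 epithelial markers, all measured, was 5.71 to 6.64 on the 67NR arrays, 6.97 to 7.10 on 168FARN, 8.54 to 10.28 on 4T07 and 9.30 to 9.84 on 4T1, so the lines with high Hoxa genes were also those with high epithelial markers. By limma, 8 of the 9 were higher than in 67NR in both 4T07 and 4T1 and 1 in 168FARN, against 10.1%, 8.56% and 12.3% of all genes. Epcam rose from 5.74 in 67NR to 10.36 in 4T1, and Esrp1 lay under 5.41 in 67NR and 168FARN, so defining markers of the mammary epithelium were low in 67NR. Within 4T07, the epithelial mean was highest on array 3 and lowest on array 2. Hoxa3, Hoxa5, Hoxa6, Hoxa9 and Hoxa10 were highest on array 3, Hoxa2 and Hoxa7 on array 2, and Hoxa4 and Hoxa11 on array 1. Between 168FARN and 67NR, where Hoxa5 differed by 1.33, the epithelial marker that differed was Krt8. The part of the epithelial markers in these differences was not tested.

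Other marker lists followed other lines. The mean of 9 fibroblast markers, all measured, was 8.60 to 9.12 in 67NR, 10.27 to 10.56 in 168FARN, 9.49 to 10.08 in 4T07 and 9.58 to 9.86 in 4T1, highest in the line in which Hoxc6 was high. Of these, 6 were higher than in 67NR in 168FARN, 7 in 4T07 and 5 in 4T1 (the shares of all genes as above). In line means, Col3a1, Pdgfra, Pdgfrb, Dcn, Lum and Fap were highest in 168FARN. Col1a1, Col1a2 and Thy1, at 10.34, 9.37 and 8.47 in 168FARN, were lower there than in 4T07 and 4T1. The part of the fibroblast markers in the Hoxc6 difference was not tested. The mean of the 12 measured skeletal muscle markers of 15 was 5.45 on 168FARN array 1 and 7.92 and 8.81 on arrays 2 and 3, against 5.29 to 6.32 on the other 9 arrays, and 3 of them were higher in 168FARN than in 67NR by limma. Hoxc6 was 6.62 on 168FARN array 1, without this signal, and 6.61 and 7.04 on arrays 2 and 3. Hoxb4 was 6.19 on 168FARN array 1 and 5.53 and 5.68 on arrays 2 and 3. The part of the muscle signal in these levels was not tested. Means of 7 endothelial, 7 leukocyte and 5 adipocyte markers lay within 7.85 to 9.02, 8.44 to 9.45 and 6.26 to 7.44 over all 12 arrays. Against 67NR, 5 endothelial markers were lower in 168FARN by limma, 3 in 4T07 and 1 in 4T1, where 10.1%, 11.6% and 11.7% of all genes were lower. The endothelial mean was 7.85 to 8.17 in 168FARN and 8.65 to 9.02 in 67NR. Of the leukocyte markers, 4 were lower in 168FARN, 2 in 4T07 and 1 in 4T1, and S100a8 was higher in 4T07 and 4T1. The adipocyte marker Fabp4 was lower in 4T1. The part of these markers in the Hox differences was not tested.

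Among genes that work with or on the Hox clusters, some lists held changes in other directions. Hoxaas2, an antisense transcript that overlaps Hoxa3 and the 1 measured member of 11 listed non-coding RNAs of the clusters, was higher in 4T1 (6.21 ± 0.18, SD, n = 3) than in 67NR (4.81 ± 0.38) and 168FARN (4.64 ± 0.20), both not above background. By limma it passed the F-test (adjusted p = 0.0241) and the contrast of 4T1 with 67NR (adjusted p = 0.0252). In 4T07 it was 4.67, 4.88 and 6.63, so that array 3 lay above every 4T1 array. Of 7 measured cofactors among 9 listed, 4 passed, against 38.6% of all genes. Meis2, a homeodomain partner of Hox proteins, had line means of 7.03 in 67NR, 8.40 in 168FARN, 7.67 in 4T07 and 6.59 in 4T1 (adjusted p = 7.74e-05), highest in 168FARN and lowest in 4T1. Pbx3 was likewise highest in 168FARN, at 8.78, and lowest in 4T1, at 7.69 (adjusted p = 0.00191), and Pbx2 (adjusted p = 0.0061) and Pknox1 (adjusted p = 0.0162) spanned 0.67 and 0.59 log2 units.

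Of 20 measured Polycomb genes among 22 listed, 7 passed limma's F-test, near the share of all genes. Cbx2, a chromodomain subunit that reads the repressive mark, was highest in 67NR at 8.93 and at 7.87 to 8.20 in the other lines (adjusted p = 0.0033). Ezh2, the enzyme that lays the mark, was at 9.33 in 67NR, 9.17 in 168FARN, 8.74 in 4T07 and 8.57 in 4T1 (adjusted p = 0.00279), and its difference of 4T1 from 67NR was -0.76 (adjusted p = 0.00216). Rnf2, a ubiquitin ligase of the complex, was highest in 168FARN at 9.91 (adjusted p = 0.000979), and Cbx8 was lowest in 4T1 at 7.51 (adjusted p = 0.014). Of 9 measured Trithorax and demethylase genes among 13 listed, 1 passed, against 38.6% of all genes. It was Kdm6a, with 8.74 in 67NR and 8.00 in 168FARN (adjusted p = 0.0239). Of 8 Cdx, ParaHox and Evx genes, 1 passed, against the same 38.6%. It was Cdx4, which lay under 5.41 in every line (adjusted p = 0.032).

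Of 9 measured genes that have been reported downstream of Hox proteins in breast or vessel cells, 6 passed the F-test, against 38.6% of all genes, and they did not move in 1 direction. The cell cycle inhibitor Cdkn1a was high in 67NR (10.81) and 168FARN (10.4) and low in 4T07 (8.72) and 4T1 (8.76), the opposite split to Hoxa2 (limma F-test adjusted p = 2.62e-05). The integrin Itgb3 was low in 67NR (7.20) and 168FARN (6.71) and high in 4T07 (8.29) and 4T1 (8.44), the same split as Hoxa2 (adjusted p = 8.2e-05). Hoxa2 is named only for its split of the lines, and a link between it and Cdkn1a or Itgb3 was not tested. The receptor Epha2 was lowest in 168FARN, at 8.62 against 9.77 to 10.11 in the other lines (adjusted p = 2.67e-05). The growth factor Fgf2 was highest in 168FARN at 7.52 and lowest in 4T1 at 6.22 (adjusted p = 0.000862).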

How the data were processed

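The deposited values were log2 signals, 1 per probeset and array, for 12 arrays of 4 tumour lines. That they are log2 was read from their range, and the authors' background correction, summary and normalization are not given in the sources used here. Array medians lay between 7.21 and 7.57, and the deposited values were used unchanged, with 0 columns left out. Total RNA was isolated with Trizol and labelled with biotin, per the labels. Of the probesets, 207232 carried 1 gene symbol, 3882 several and 16976 none, and only the first were used. Of 16207 symbols, 14055 were current, 2111 were updated through RefSeq genes of GRCm38.p6 and 41 were kept. RefSeq served for names, gene order and promoter windows, and those sources name no build for the deposited files. A gene's level was the median of its probesets. One limma fit (limma 3.58.1 in R 4.3.3, files read with version 1.17.8 of the data.table package) covered all 16185 genes and 4 groups of 3 arrays, with a moderated F-test and 6 contrasts and Benjamini-Hochberg adjustment over all genes. The script was tested on simulated data. Tables and figures were made with Python 3.11.15, pandas 2.3.3 and matplotlib 3.10.9.

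Per-array values are given for Hox genes that passed the F-test, with a line mean above the 95th percentile of olfactory receptor genes and line means at least 1 apart. Of other lists at most 4 genes that passed, those with the largest spread, and all cluster neighbours are named. Members and lists were chosen with earlier results of these data known. Replicate numbers were taken to share only a number. The deviations of same-numbered arrays correlated at -0.07 to 0.20 (median 0.03) over 18 pairs, 3 of them above 0.1. Such correlations alone cannot exclude a shared batch. Alternatives were the gene summary, the minimum of 3 or 5 probesets, quantile normalization, centring, a filter on dim genes, limma-trend, the replicate block, 2 lines alone, each array left out, and 168FARN array 1 alone, since muscle markers were high on arrays 2 and 3.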

Additional observations from a re-analysis of the deposited data

How the results depend on the processing

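Each count was recomputed under up to 22 alternatives, of which the upper quartile of the probesets was chosen after seeing the data, as was a fit of single probesets. The count of 11 Hox genes that differed among the lines lay between 10 and 13 with 1 array left out. With the mean of the probesets, 4T1 against 67NR had 12 Hox genes in place of 7 and 1 set a line apart in place of 2. With at least 5 probesets, which leaves fewer genes to test, that count was 4, and 4T07 against 168FARN had 5 in place of 9. With the upper quartile, 168FARN against 67NR had 3 in place of 6, 4T1 against 4T07 had 1 in place of 2 and 1 gene set a line apart. With 168FARN array 1 as the only 168FARN array, so fewer samples, these were 1, 1 and 0, and 4T07 against 168FARN had 2. With only the 2 lines' own arrays, 4T07 against 168FARN had 5 and 4T1 against 4T07 had 0.

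Leaving out 1 array gave 3 to 7 for 168FARN against 67NR, 6 to 10 for 4T07 against 67NR, 5 to 8 for 4T1 against 67NR, 5 to 9 for 4T07 against 168FARN, 7 to 9 for 4T1 against 168FARN, 0 to 2 for 4T1 against 4T07 and 1 to 2 for genes that set a line apart. With the replicate block, 4T1 against 4T07 had 1 called gene in place of 2, no other count of Hox genes moved by over 1.5 times, Hoxa5 no longer set 4T1 apart and Hoxa9 did not pass the F-test. The largest difference of each of the 7 genes given array by array kept its direction and call in 157 refits and its direction alone in 1, Hoxc8 with the mean of its probesets (0.73, adjusted p = 0.0731 by limma). No scaling moved the median of all genes by over 0.1. Apart from alternatives that test fewer genes or samples, the cause of these changes was not tested. Groups of 3 arrays were not tested for outlying samples.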
